A study of Mus musculus with 7 samples.

Results

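The genes described here encode 10 regulators of energy metabolism in the heart, namely the coactivators Ppargc1a and Ppargc1b, the receptors Ppara, Ppard, Pparg, Rxra, Esrra, Esrrb and Esrrg, and the mitochondrial factor Tfam. They were taken by symbol; the set was put together with earlier results of these data known. Each matched 1 row, so 10 of the 23420 rows of the table are described, and all 10 passed the filter on low values. RNA came from mouse heart, labelled whole heart in one place and frozen ventricle in another, of untreated animals aged 3 to 6 weeks. All 7 animals carried the genotype Pdcd1-/-, which removes the checkpoint receptor PD-1. The 4 control animals were also Ctla4+/+, and the 3 animals called ICI-myocarditis were Ctla4+/-, so they lacked 1 copy of the gene for the checkpoint receptor CTLA-4. This genotype stands as a model of heart inflammation caused by immune checkpoint inhibitors (ICI); no inhibitor was given. Each library is 1 mouse by the series' design text, and how the mice were related is not given there.

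PGC-1alpha and PGC-1beta, encoded by Ppargc1a and Ppargc1b, do not bind DNA themselves. They dock on nuclear receptors and raise the transcription of genes for fatty acid oxidation and respiration. The PPAR receptors sense fatty acids and bind DNA as pairs with an RXR receptor, while the estrogen-related receptors (ERR) act without a known natural hormone and drive genes of the citric acid cycle and the respiratory chain. Tfam packages mitochondrial DNA and starts its transcription, and its own gene is a known target of the nuclear factors NRF1 and GABP. The adult heart burns mainly fatty acids and depends on this circuit.

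No regulator passed the test between the groups. All 10 had a lower mean of log2 values in ICI-myocarditis (9 of 10 with scaling by library total or with limma-voom, where Ppard turned), but the differences ran from -1.19 for Ppara to -0.04 for Ppard, and none reached an adjusted p under 0.05 with limma. Ppara lay closest to the threshold (adjusted p = 0.0510), followed by Ppargc1b (0.0712) and Ppargc1a (0.114). Among known targets of the PPAR receptors 12 of 38 fell and 1 rose, where 15.7% of all genes were called and 4.00% were called lower. That count of 13 became 2 without ICI-myocarditis 3, and 3 without control 3 or ICI-myocarditis 2. No test set the targets against the regulators.

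The 3 stretches of promoter below are examples. Each carries, just before a RefSeq transcript start of a regulator, a match to a motif of CREB, NRF1 or GABP. A link between NRF1 and Ppara was not tested. They come from RefSeq (GRCm38.p6) and run 5′ to 3′ on the strand of the gene, with the motif in capitals. The first lies at chr5:51567740-51567804 (minus strand, Ppargc1a), the second at chr15:85735715-85735775 (plus strand, Ppara) and the third at chr10:71238055-71238121 (minus strand, Tfam).
Ppargc1a: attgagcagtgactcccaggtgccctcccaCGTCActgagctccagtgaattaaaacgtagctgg
Ppara: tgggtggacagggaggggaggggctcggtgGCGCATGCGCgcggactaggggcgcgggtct
Tfam: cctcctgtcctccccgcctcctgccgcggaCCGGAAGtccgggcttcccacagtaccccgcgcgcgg

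The capitals in Ppargc1a are the core TGACG, read on the other strand, of the element bound by CREB, a factor that switches the gene on. Those in Ppara match the palindromic NRF1 motif, and those in Tfam match the motif CCGGAAG of GABP. They start 49, 31 and 47 bases before the RefSeq start. For Ppara and Tfam that start lies inside the span GENCODE gives the gene, and so does the motif. RefSeq promoters were found for 9 of the 10 regulators, 16 promoters in all. In the 250 bases before the start, searched on both strands, TGACG was present in 3 of these 16 and in 17.8% of all 32851 promoters. The TGACG matches in Esrrb and Ppara are not shown. The NRF1 motif was in 1 of 16 against 3.74% of all, and CCGGAAG in 1 of 16 against 6.91%. The ERR element TNAAGGTCA and the direct repeat with 1 spacer bound by PPAR and RXR were in 0 of the 16 and in 1.14% and 0.338% of all. The core hexamer AGGTCA, which both of these longer elements resemble, was in 3 of 16 against 14.02%. Among the 26 promoters found for genes of mitochondrial DNA upkeep, 10 held CCGGAAG (38.5%), as did 7 of 45 promoters of ERR targets and 4 of 36 of PPAR targets. TGACG was in 10 of these 26 (38.5%), 16 of the 45 (35.6%) and 6 of the 36 (16.7%), so the higher shares were not particular to CCGGAAG. A match is a description of the letters and does not show that a factor binds there. The levels of Creb1, Nrf1 and Gabpa are given further on.

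The 7 libraries held from 20931730 to 39037176 reads assigned to genes. Values are normalized counts, that is reads divided by 1 size factor per library. Differences are ICI-myocarditis minus control means of log2(normalized count + 1), with the standard error (SE) from limma and p-values adjusted over all 15258 genes tested. Of these genes 15.7% passed an adjusted p of 0.05, and 4.00% passed it with lower levels in ICI-myocarditis. Each regulator had at least 337 normalized counts in every library, so counting error was small against the spread between animals. Ctla4 and Pdcd1 had more reads in ICI-myocarditis than in controls (log2 difference 2.40 and 6.54), so neither checked the genotype labels. The 11 markers of heart muscle cells summed to between 2857920 and 6222160 normalized counts in controls and between 2018840 and 3388710 in ICI-myocarditis, so all 7 libraries carried heart muscle RNA. Of those 11 markers limma called 0 (2 at an unadjusted p under 0.05), edgeR 0, DESeq2 4 and limma-voom 3. Every call was lower in ICI-myocarditis, where DESeq2 called 7.35% and limma-voom 10.1% of all genes lower. In such bulk tissue, fewer cells of a type and less RNA per cell cannot be told apart.

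The coactivators were both lower on average in ICI-myocarditis. Ppargc1a, the coactivator induced by cold, fasting and exercise, had 6964, 2658, 3853 and 5344 normalized counts in controls 1 to 4 and 2949, 2657 and 1667 in ICI-myocarditis 1 to 3. Control 2 lay at the level of ICI-myocarditis 2, so the groups overlapped. The log2 difference was -0.91 (SE 0.347, 95% interval -1.69 to -0.13, limma adjusted p = 0.114). Ppargc1b, its close relative, had 3168, 1917, 1946 and 2358 normalized counts in controls and 1041, 1807 and 1266 in ICI-myocarditis. Every ICI-myocarditis library was below every control for this gene. The log2 difference was -0.78 (SE 0.257, 95% interval -1.36 to -0.20, limma adjusted p = 0.0712).

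None of the 3 PPAR genes passed the test, and their differences were not tested against each other. Ppara, the main PPAR of heart muscle and a driver of fatty acid oxidation genes, had 4946, 2080, 2993 and 4600 normalized counts in controls and 1910, 1833 and 977 in ICI-myocarditis. Every ICI-myocarditis library lay below every control, with control 2 the nearest. The log2 difference was -1.19 (SE 0.356, 95% interval -1.996 to -0.39, limma adjusted p = 0.0510), which corresponds to a level 56.3% lower. Ppard, expressed in most tissues, had 1629, 944, 842 and 1087 normalized counts in controls and 814, 1240 and 1187 in ICI-myocarditis, and the groups were fully mixed. Its log2 difference of -0.04 (SE 0.265, limma adjusted p = 0.945) had a 95% interval from -0.63 to 0.56, and its sign turned with scaling to library totals (0.12). Pparg, the PPAR of fat cells that macrophages and endothelium also express, had 709, 720, 459 and 337 normalized counts in controls and 435, 422 and 555 in ICI-myocarditis. Controls spanned the ICI-myocarditis values for this gene on both sides, and the log2 difference was -0.18 (SE 0.292, 95% interval -0.84 to 0.48, limma adjusted p = 0.729).

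Rxra, an RXR partner of the PPAR receptors on DNA, had 3601, 2033, 1879 and 2866 normalized counts in controls and 1757, 2395 and 2256 in ICI-myocarditis. The groups overlapped, and the log2 difference was -0.24 (SE 0.261, 95% interval -0.83 to 0.35, limma adjusted p = 0.585).

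The ERR genes were lower on average and varied alike over the libraries. Esrra, the ERR that PGC-1alpha itself induces, had 4432, 2803, 3294 and 6078 normalized counts in controls and 3408, 2748 and 1574 in ICI-myocarditis. ICI-myocarditis 1 lay above controls 2 and 3, and ICI-myocarditis 2 and 3 lay below every control. The log2 difference was -0.70 (SE 0.339, limma adjusted p = 0.206). Esrrg, an ERR enriched in oxidative muscle, had 1768, 863, 1742 and 2415 normalized counts in controls and 1183, 1318 and 607 in ICI-myocarditis, a log2 difference of -0.70 (SE 0.380, limma adjusted p = 0.257). Esrrb, known best from stem cells and the inner ear, had 1107, 518, 825 and 1391 normalized counts in controls and 727, 633 and 511 in ICI-myocarditis, a log2 difference of -0.54 (SE 0.323, limma adjusted p = 0.298). Control 2 lay below ICI-myocarditis 1 and 2 for both Esrrb and Esrrg, so the groups overlapped for all 3 ERR genes.

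Tfam, the endpoint of the circuit in the mitochondrion, had 1011, 860, 1220 and 1558 normalized counts in controls and 867, 838 and 556 in ICI-myocarditis. The groups overlapped by a narrow margin, since ICI-myocarditis 1 was just above control 2. The log2 difference was -0.62 (SE 0.256, 95% interval -1.19 to -0.04, limma adjusted p = 0.142).

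**Figure D1:**
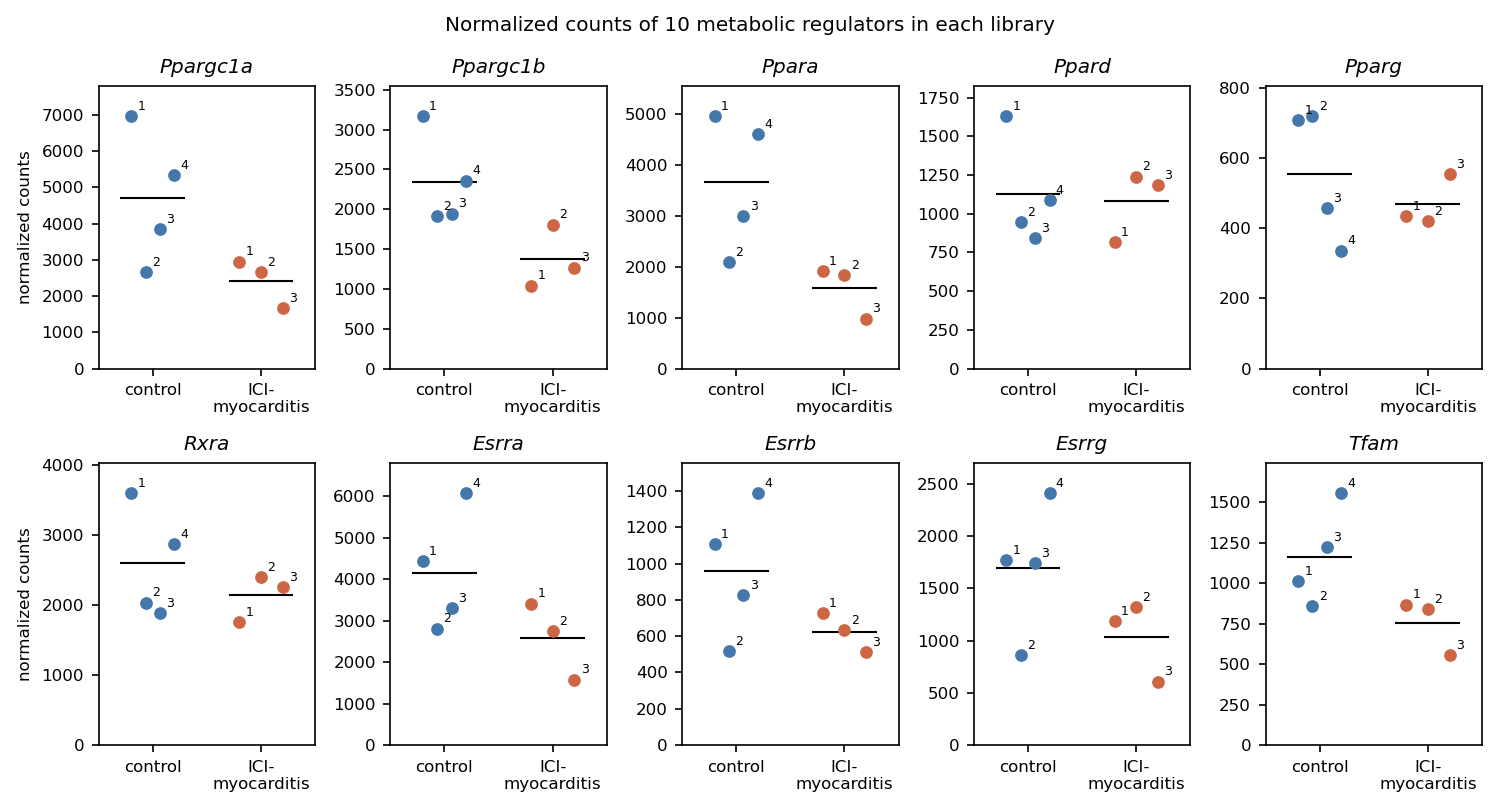
Normalized counts (vertical axis, from 0, a scale of its own for each gene) of the 10 regulators in 4 control and 3 ICI-myocarditis libraries; points are libraries marked with their replicate number and the line is the group mean. The groups are apart for Ppara and Ppargc1b and overlap for the other 8 genes.

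As a set the 10 genes had a median log2 difference of -0.66, where the median over all genes tested was -0.02, and 51.9% of all genes lay below 0. Limma called 0 of 10 (4 at an unadjusted p under 0.05: Ppara, Ppargc1b, Ppargc1a and Tfam). Over all genes 12.4% had an unadjusted p under 0.05 with lower levels in ICI-myocarditis. The groups were apart, with ICI-myocarditis lower, for 2 of 10 regulators and for 11.3% of all genes. On whole reads recovered from the table, edgeR called Ppara (adjusted p = 0.0480), where 3.65% of all genes passed with lower levels. DESeq2 called Ppara, Ppargc1a and Ppargc1b (adjusted p = 0.00969, 0.0472 and 0.0448; 7.35% of all genes), and limma-voom with weights for library quality called Ppara, Ppargc1a and Tfam (0.0124, 0.0364 and 0.0404; 10.1%). In the authors' deposited table, 3 of the 10 regulators had an adjusted p under 0.05, namely Ppara, Ppargc1a and Ppargc1b (0.00973, 0.0475 and 0.0451). Their log2 fold changes there (-1.216, -0.957 and -0.775) are the same as those of DESeq2 on recovered reads. The deposited calls are thus not a separate result. The share of all genes passing in the authors' test is not given here, and the nearest base is the 7.35% called lower by DESeq2 above.

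With limma, control 2 was the only library whose removal changed the count of regulators called. With all 7 libraries kept, the count also depended on the tool, at 1 with edgeR and 3 with DESeq2 or limma-voom. Without control 2 limma called 5 of the 10 regulators, all lower in ICI-myocarditis, while 7.19% of all genes were called lower. These were Ppara (adjusted p = 0.0112), Ppargc1a (0.0247), Esrrb (0.0457), Ppargc1b (0.0475) and Esrrg (0.0481). Without any other single library the count stayed at 0. Control 2 was the lowest control for 7 of the 10 genes and the highest control in the sum of T cell markers (1868 normalized counts, the others at most 238). It also had 244 normalized counts of Pdcd1, where the other controls had at most 9.07. Its macrophage markers summed to 22338, near controls 3 and 4 (21789 and 21954). The part of these traits of control 2 in the count was not tested.

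**Figure D2:**
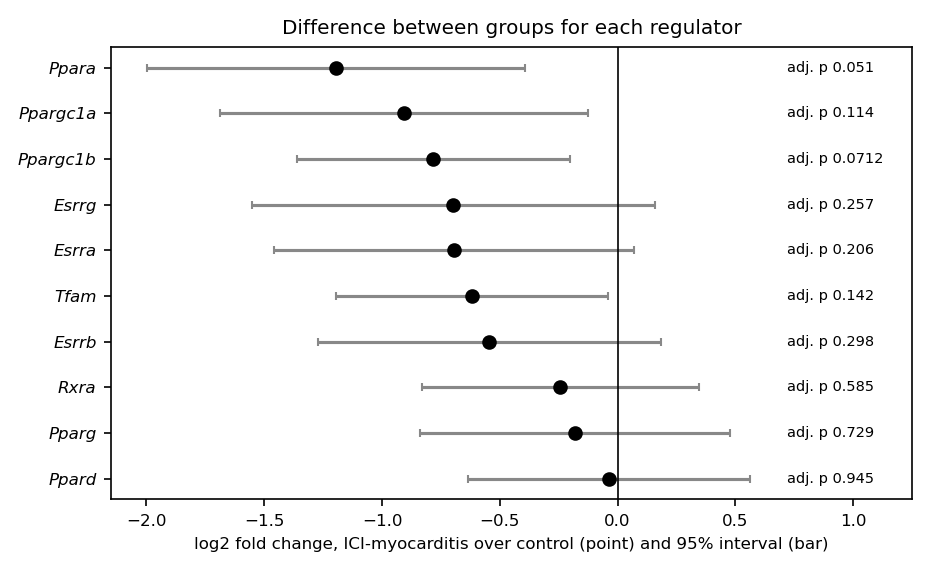
Log2 difference between ICI-myocarditis and control (horizontal axis) for each regulator, with its 95% interval from limma and the adjusted p at the right; n is 4 control and 3 ICI-myocarditis libraries. All 10 points lie below 0, from -1.19 to -0.04 (Ppard turns to 0.12 with scaling by library total), and no adjusted p is under 0.05.

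The regulators were not lowest in the same library. Ppargc1a, Ppara, Esrra, Esrrb, Esrrg and Tfam were lowest of all 7 libraries in ICI-myocarditis 3, whereas Ppargc1b, Ppard and Rxra were lowest in ICI-myocarditis 1 and Pparg in control 4. The highest library was control 1 for 5 genes, control 4 for the 3 ERR genes and Tfam, and control 2 for Pparg. Against the control mean, ICI-myocarditis 3 stood at -1.82 (log2) for Ppara, -1.41 for Ppargc1a and -1.39 for Esrrg, but at 0.12 for Ppard and 0.07 for Pparg. As a description over 7 libraries that fall into 2 groups and share their normalization, Pearson's r of log2 values was 0.98 between Ppargc1a and Ppara, 0.94 between Esrrg and Tfam, and -0.05 between Ppargc1a and Pparg.

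As a mean, markers of heart muscle cells were also lowest in ICI-myocarditis 3. Tnnt2 on its own was lowest in ICI-myocarditis 1 (47981 normalized counts, against 59377 in ICI-myocarditis 3). The mean of 11 such markers (Myh6, Tnnt2, Ryr2 and others, log2) stood at -0.72 in control 2 and at -0.57, -0.52 and -1.47 in ICI-myocarditis 1 to 3, against the control mean. Measured against that marker mean, the difference between groups was -0.05 for Ppargc1a, 0.07 for Ppargc1b, 0.16 for Esrra, 0.16 for Esrrg, 0.24 for Tfam and 0.31 for Esrrb. Ppara was the lowest regulator on this scale, at -0.34, and all 3 ICI-myocarditis libraries (-0.28, -0.39 and -0.35) lay under every control (-0.23 to 0.38). Rxra, Pparg and Ppard stood at 0.61, 0.67 and 0.82. These are differences of log2 values with no test, and the part of muscle cell content in the group differences was not tested.

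**Figure D3:**
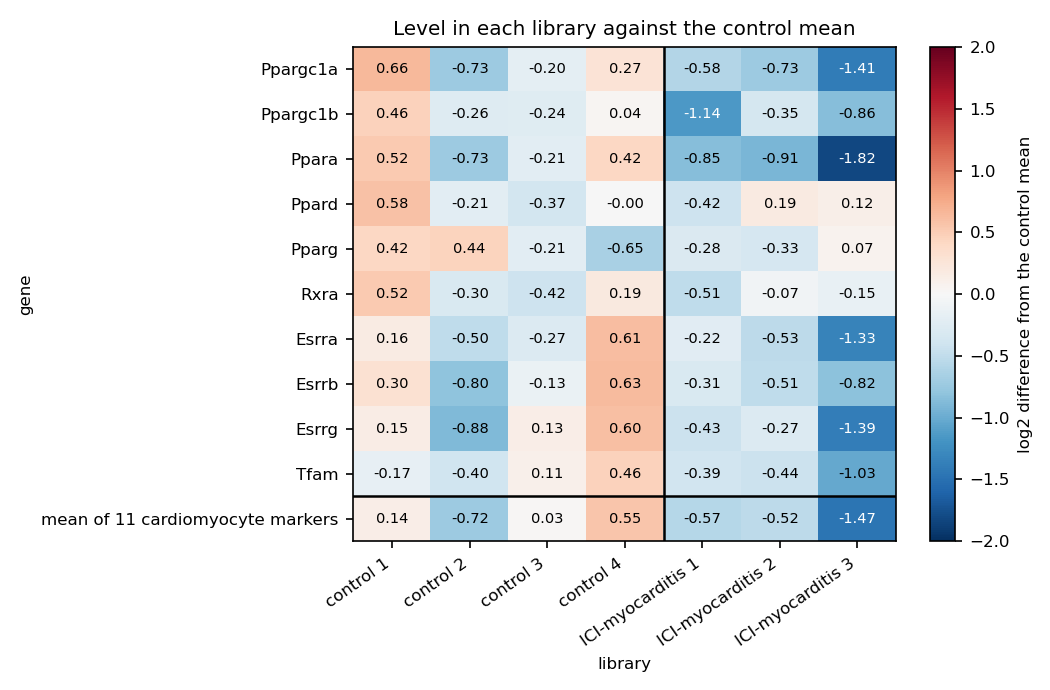
Log2 difference of each regulator from its control mean (colour and printed value) in each of the 7 libraries (columns), with the mean of 11 cardiomyocyte markers in the bottom row. Control 2 (-0.72) and ICI-myocarditis 1 to 3 (-0.57, -0.52 and -1.47) lie below 0 in the bottom row. They also lie below 0 in the rows of Ppara, Ppargc1a and the ERR genes. For Ppard and Pparg, ICI-myocarditis 3 stands at 0.12 and 0.07, and control 2 at -0.21 and 0.44.

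Other cell types differed between the groups too. The 12 macrophage markers summed to 17076 to 22338 normalized counts in controls and 61523 to 93554 in ICI-myocarditis, with 10 called higher and 1 lower. The 9 T cell markers with a row summed to 143 to 1868 in controls, control 2 being the highest, and to 7919 to 12234 in ICI-myocarditis. The 10 endothelial markers summed to 36968 to 90801 and to 30413 to 36844, with 5 called lower. That count was 2 without control 1, control 3, ICI-myocarditis 1 or ICI-myocarditis 3, 3 without ICI-myocarditis 2, 8 without control 4 and 1 with scaling by library total. Of 9 fibroblast markers 4 were called higher, 2 without ICI-myocarditis 3 and 1 without control 3 or ICI-myocarditis 2. Beside Pparg, the 8 fat markers summed to at most 17.3 normalized counts in 5 libraries, 65.1 in control 4 and 231 in control 3. Pparg was at 459 in control 3, within the range of the other controls, and Adipoq was at 0 in 3 libraries. The 5 brown fat markers summed to 241 to 841 normalized counts in controls and 335 to 557 in ICI-myocarditis, nearly all from Cidea (241 to 833 over the 7 libraries), while Ucp1 had at most 2.50. The part of these cell types in the levels of the regulators was not tested.

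Per kilobase of the longest annotated transcript, on which levels of different genes can be set side by side, Esrra was the most abundant regulator in controls with 1668 ± 584 normalized counts per kilobase (SD, n = 4). Ppara (1071 ± 396), Ppargc1a (728 ± 288), Ppargc1b (642 ± 159) and Rxra (529 ± 163) followed. Esrrg (316 ± 119), Ppard (302 ± 94.1), Tfam (279 ± 72.5), Pparg (262 ± 89.3) and Esrrb (223 ± 87.1) came last. For every pair of neighbours in this order the ranges over the 4 controls overlapped. In ICI-myocarditis Esrra remained first at 1035 ± 373 (SD, n = 3). Ppara (461 ± 152), Rxra (435 ± 68.5), Ppargc1a (375 ± 104) and Ppargc1b (375 ± 108) followed, with ranges that overlapped.

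The mix within each family is free of library scaling. Of the summed PPAR signal per kilobase, Ppara made up 65.3%, 50.7%, 66.5% and 75.0% in controls 1 to 4 and 56.9%, 50.3% and 33.0% in ICI-myocarditis 1 to 3. Ppard made up 16.2% to 21.1% in controls and 22.2% to 36.8% in ICI-myocarditis, so the groups were apart for this share. The level of Ppard itself was mixed between the groups (log2 difference -0.04). A share also rises when another part of the sum, here Ppara, is lower. The ERR mix was alike in both groups, with Esrra at 75.8% ± 3.32 in controls and 74.9% ± 2.55 in ICI-myocarditis. Ppargc1a made up 52.1% ± 5.61 and 49.9% ± 10.2 of the PGC-1 signal. These shares were not tested, and they assume that the longest transcript is the one expressed. Counts per gene do not separate transcripts, of which GENCODE M21 lists 5 for Ppargc1a and 7 for Pparg.

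All 10 genes were located in GENCODE M21 (GRCm38). Tfam spans chr10:71225464-71238280 on the minus strand. Ppara spans chr15:85734983-85802819 on the plus strand, Ppargc1a spans chr5:51454250-51567726 on the minus strand and Esrra spans chr19:6910977-6921813 on the minus strand. Ppargc1b overlaps the microRNA gene Mir378a on its own strand, and Esrra overlaps Trmt112 on the other strand. How the reads were counted over such overlaps is not given in the sources used here.

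The other cofactors of the circuit did not pass. Of 18 coactivators and corepressors limma called 0 (3 at an unadjusted p under 0.05, all lower), edgeR 0, DESeq2 3 (all lower) and limma-voom 3 (2 lower). Over all genes 12.4% were lower at an unadjusted p under 0.05 with limma, and DESeq2 and limma-voom called 7.35% and 10.1% lower. The median log2 difference was -0.04, and 0.12 with scaling by library total. The lowest p-values were those of Lpin1, a coactivator of PGC-1alpha and PPARalpha (log2 difference -1.25, limma adjusted p = 0.0532), Prdm16 (-0.89, 0.0650) and Perm1, an ERR and PGC-1 partner in muscle listed as 2310042D19Rik (-0.84, 0.130). Lpin1 had 10884, 5022, 7854 and 9714 normalized counts in controls and 4182, 4763 and 1927 in ICI-myocarditis, with all of the latter below the controls. On the other side were Pprc1, the third PGC-1 relative (0.51, adjusted p = 0.216), Ncoa3 (0.26, 0.580) and Ep300 (0.22, 0.567). The corepressor Nrip1 was at 0.19 (0.627) and the deacetylase Sirt1 at -0.22 (0.429).

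Among 24 other nuclear receptors 3 fell and 2 rose, with a median log2 difference of -0.25. Limma called 5 of 24 (20.8%, against 15.7% of all genes). Nr1d1, the clock repressor REV-ERBalpha, fell from 5310 ± 457 (SD, n = 4) to 2334 ± 730 normalized counts (SD, n = 3), a log2 difference of -1.23 (SE 0.240, limma adjusted p = 0.01004). Thra, the main thyroid hormone receptor of the heart, fell by 0.72 (adjusted p = 0.0420), and Nr3c2, the mineralocorticoid receptor, fell by 0.86 (0.0494). The vitamin D receptor Vdr rose from 28.7 ± 4.51 to 236 ± 192 normalized counts (log2 difference 2.699, adjusted p = 0.00802), with 455 of them in ICI-myocarditis 3. Nr4a2, an early-response receptor, rose by 1.92 (0.0159), and Rara (0.60, 0.145) did not pass. The other RXR genes did not pass either, with Rxrg at -0.89 (0.148) and Rxrb at -0.20 (0.619). The call of Nr3c2 was kept in 4 of 17 alternatives, being lost without ICI-myocarditis 1 or 3 and without each control, and that of Thra in 7 of 17, being lost without controls 1, 3 or 4 and without each ICI-myocarditis library. Nr4a2 missed the threshold without ICI-myocarditis 2 or 3 (adjusted p = 0.0561 and 0.0753).

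Genes that act upstream of Ppargc1a were mostly not called. Of 40 such genes 1 fell, 2.5% of the list, where limma called 4.00% of all genes lower. The median log2 difference was -0.16, and -0.003 with scaling by library total. Map2k6, a kinase that activates p38, fell from 260 ± 58.3 to 130 ± 40.3 normalized counts (log2 difference -1.02, limma adjusted p = 0.0399), a call lost without controls 1, 3 or 4, or ICI-myocarditis 1 or 3. Mef2c (-0.58, adjusted p = 0.0699) and Hes1 (-0.63, 0.0814) did not pass, nor did Camkk2 (0.62, 0.130), Twist1 (0.97, 0.136) and Tfe3 (0.54, 0.197). Creb1, named here because its motif is shown for Ppargc1a and not by the rule for named genes, was at -0.25 (0.381). Prkaa2, the catalytic AMPK subunit of muscle, was at -0.56 (0.347), Klf15 at -0.53 (0.404) and Hif1a at 0.26 (0.502).

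For the upkeep and expression of mitochondrial DNA, limma called 0 of 25 genes (8 at an unadjusted p under 0.05, 7 of them lower). edgeR called 0, DESeq2 5 (4 lower) and limma-voom 8 (6 lower), and the median log2 difference was -0.51. The shares called lower over all genes were 7.35% with DESeq2 and 10.1% with limma-voom. With limma 12.4% of all genes were lower at an unadjusted p under 0.05. The factors of the motifs shown for Tfam and Ppara differed in sign: Gabpa was at -0.51 (adjusted p = 0.105) and Nrf1 at 0.13 (0.755). Polrmt, the mitochondrial RNA polymerase, was at -0.72 (0.0625), Polg, the DNA polymerase, at -0.55 (0.0822), Mterfd2, a factor for assembly of the mitochondrial ribosome, at -0.73 (0.0589) and Tfb2m, the partner of Tfam in transcription, at -0.57 (0.267). Tk2 (0.68, 0.0660), Ccdc111 (0.83, 0.192) and Gabpb2 (0.22, 0.646) had higher means in ICI-myocarditis.

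Known PPAR targets, genes of fatty acid uptake, storage and oxidation, gave the most calls of the 6 lists. Of 38 genes 12 fell and 1 rose, so 34.2% were called against 15.7% of all genes, and the median log2 difference was -1.13. Beside it, the median was -0.80 for the 11 cardiomyocyte markers, all of them below 0, and -1.06 for the 10 endothelial markers, and the part of either cell type was not tested. Plin5, which coats lipid droplets in muscle, had 5009, 3824, 3899 and 5366 normalized counts in controls and 2023, 1712 and 672 in ICI-myocarditis, and fell by 1.75 (SE 0.361, limma adjusted p = 0.0122). Acot1, a thioesterase for long-chain acyl-CoA, fell from 515 ± 250 (SD, n = 4) to 145 ± 54.5 normalized counts (SD, n = 3; log2 difference -1.79, adjusted p = 0.0185); its paralog Acot2 is near-identical, so reads may be shared. The gene that rose was Ucp2, a mitochondrial carrier abundant in macrophages, from 3038 ± 776 to 11161 ± 2270 normalized counts (1.89, adjusted p = 0.00376). The macrophage markers rose beside it, and their part in its level was not tested.

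Other well-known targets missed the threshold or were near 0. Pdk4, which blocks glucose oxidation when fat is burned, was at -1.12 (limma adjusted p = 0.149), Angptl4 at -0.82 (0.310) and Plin2 at 0.04 (0.905), whose sign turned without control 1 or ICI-myocarditis 2. Cpt1b, the muscle gate for fatty acid entry into mitochondria, had only 21.3 to 91.3 normalized counts. Whether its reads were lost where gene models overlap could not be tested on counts per gene. Acot1 missed the threshold without control 3 or ICI-myocarditis 3 (adjusted p = 0.0594 and 0.0722). The count of 13 was 26 without control 2, 7 without control 1 or 4, 3 without control 3 or ICI-myocarditis 2 and 2 without ICI-myocarditis 3.

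Known ERR targets of respiration and the citric acid cycle all lay below 0, 44 of 44 in the main test, with a median log2 difference of -0.93. Over all genes 51.9% lay below 0. The 44 of 44 held in each of the 17 alternatives, which reuse the same libraries. The cardiomyocyte markers likewise lay below 0, 11 of 11, in the main test and in each alternative. By the test 3 fell, 6.82% of the list (23 at an unadjusted p under 0.05); DESeq2 called 20 and limma-voom 24. Over all genes limma called 4.00% lower, 12.4% were lower at an unadjusted p under 0.05, and DESeq2 and limma-voom called 7.35% and 10.1% lower. Bckdha, a subunit of the branched-chain ketoacid dehydrogenase, fell from 7325 ± 2112 to 2596 ± 667 normalized counts (log2 difference -1.48, limma adjusted p = 0.0108). Sod2, the mitochondrial superoxide dismutase, fell by 1.22 (0.0422) and Ckmt2, the mitochondrial creatine kinase of muscle, fell by 1.37 (0.0426). Cycs, cytochrome c, was at -0.83 (0.180). The median of the 11 cardiomyocyte markers was -0.80, close to that of this list. The calls of Sod2 and Ckmt2 were lost without any of controls 1, 3 and 4 or ICI-myocarditis 2 and 3, Sod2 also without ICI-myocarditis 1, and Bckdha missed it without ICI-myocarditis 3 (0.0527). The count of 3 was 25 without control 2, 1 without controls 1, 3 or 4 or ICI-myocarditis 2, and 0 without ICI-myocarditis 3.

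**Figure D4:**
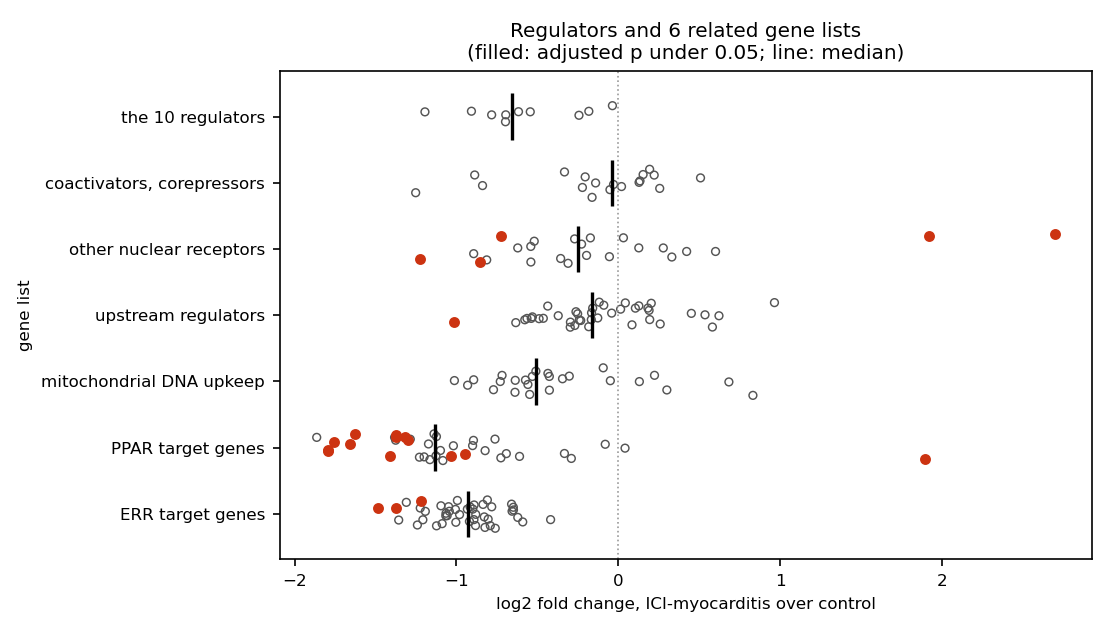
Log2 difference between ICI-myocarditis and control (horizontal axis) of each gene of the 10 regulators and of 6 related lists (rows); filled points passed an adjusted p of 0.05 with limma and the line is the median of the list. None of the 10 regulators is filled, while 13 of 38 PPAR targets and 3 of 44 ERR targets are.

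Genes outside the set with the pattern most like a regulator's were sought by Pearson's r of log2 values over the 7 libraries, as a description. Ppargc1a was closest to Klf9 (0.982), Mfge8 (0.977) and Chordc1 (0.976), and Ppara to Ears2 (0.993), Gfra4 (0.992) and Csdc2 (0.990). Esrra was closest to Eif2b4 (0.996), Ndufaf3 (0.992) and 2510049J12Rik (0.992), and Esrrg to Ndufab1 (0.996), Usp13 (0.996) and Oxnad1 (0.994). The 7 points share group and normalization, and the best of 15258 genes are high by selection. Of these 12 genes Csdc2 passed (log2 difference -1.34, limma adjusted p = 0.0393), a call lost without controls 1, 3 or 4 or ICI-myocarditis 2 or 3.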

How the data were processed

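Total RNA of 7 mouse hearts was sequenced as stranded paired-end libraries, per the labels' protocols. The deposited table gives each gene's signal in each library, which the authors obtained by dividing reads by a library-wide factor, as the values show. Further columns, per the file headers, are the authors' log2 fold changes, their test statistic (a score) and p-values. STAR 2.7.3 and GRCm38 (mm10) are named per the submitters' processing notes; the counting program, annotation and use of strand are not given in the sources used here. Whole multiples of 1 step made up 100% of values (within 0.01) in all 7 libraries, so reads were recovered; for control 1 the step is 1.01, a weaker sign.

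Groups were compared with limma 3.58.1 under R 4.3.3, after adding 1 to the normalized count and taking log2, with trend and robust variance, for genes with at least 10 normalized counts in 3 libraries, Benjamini-Hochberg adjusted over all genes tested. edgeR 4.0.16 and DESeq2 1.42.0 on recovered reads were alternatives. Tested on simulated counts, limma recovered 84.3% of changes of 2 (log2) but 5.10% of changes of 1, with 4.21% of calls wrong, over 15215 genes. DESeq2 recovered 36.7% of changes of 1, with 21.1% of calls wrong, over 16952 genes. The simulation changed 200 genes, a smaller share than the 15.7% that limma called in the data. Recovery and wrong calls depend on that share, so these percentages do not carry over directly to the data.

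The 10 regulators and all lists were chosen with earlier results of these data known. Named genes are the regulators, the 3 lowest p-values per list and direction, a set of further genes whatever their values and the 3 most alike genes of 4 regulators. 1 gene that this rule names is not reported here. Of 275 list entries 8 were matched by an older symbol and 1 had no row. Replicates are separate mice by the series' design text. Alternatives were other pseudocounts, filters, tools, scaling by library total, plain variance shrinkage, the replicate block and leaving out each library. Sequences are from RefSeq; protein sequences were not used here.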

Additional observations from a re-analysis of the deposited data

Results flagged for a closer look

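In the 4 controls, 70 genes named above were searched for 1 library standing far from the rest (gap to its neighbour as a share of the range, log2 scale). About 1 in 20 would be found by chance, or 3.5, and 2 were found, neither of them among the 10 regulators. Sirt1 was high in control 2 (share 0.895), with 798 normalized counts against 673 to 686 in the other controls. Nr3c2 was low in control 1 (share 0.880), with 894 normalized counts against 1203 to 1252.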

How the results depend on the processing

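Of 170 log2 differences of the 10 regulators under 17 alternatives, 152 kept their sign and their side of the threshold, 14 newly passed and 4 turned sign. All 4 were of Ppard: 0.12 with limma-voom, 0.12 with scaling by library total, 0.16 without control 1 and 0.16 without ICI-myocarditis 1; leaving out 1 library gave -0.16 to 0.16. Plin2 turned to -0.025 without control 1 and to -0.010 without ICI-myocarditis 2, with up to 0.11 when 1 library was left out. Scaling by library total moved the median over all genes from -0.02 to 0.14. The count of regulators called, 0, became 1 with a pseudocount of 5, with edgeR and with scaling by library total (Ppara each time), and 3 with DESeq2 and with limma-voom. Leaving out 1 library gave 0 to 5. The 22 calls in the 6 lists became 61 with DESeq2 and 74 with limma-voom, and 4 to 65 when 1 library was left out (4 without ICI-myocarditis 3, 65 without control 2). Over all genes the count of 2397 became 4050 with limma-voom and 986 to 3340 when 1 library was left out (986 without ICI-myocarditis 3, 1298 without control 3, 1396 without ICI-myocarditis 2, 1508 without control 1). DESeq2 called 2200 genes higher and 1243 lower, against 1787 and 610 with limma. Deviations from the group means of same-numbered libraries correlated at -0.27, -0.21 and -0.08 across genes. For libraries of different number the values ran from -0.48 to 0.45. Deviations within a group sum to 0, so these correlations cannot show or exclude pairing. The numbers were not treated as pairs. With the replicate number as a block, which needs control 4 left out, 0 regulators, 9 list genes and 1764 genes in all were called; without control 4 and without the block the list count was 11. The causes were not tested. Depth was not varied; every regulator had at least 337 normalized counts in each library.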
